A study of Homo sapiens with 10 samples.

Results

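The regions described here are places in RWPE1 cells where a peak of wild-type ERG and a peak of the point mutant ERG P436A coincided, and where VCaP cells had no ERG peak. They were chosen by their peaks in 4 deposited ERG ChIP-seq lists. Both lists made with wild-type ERG in RWPE1 were merged wherever their peaks overlapped by at least 1 bp, which gave 3738 regions. Of these, 302 (8.08%) had an ERG P436A peak, and 43 of the 302 also had a VCaP ERG peak and were set aside. The remaining 259 are called kept regions below. Merging all 7 lists of the study gave 27928 regions.

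ERG is a transcription factor of the ETS family, whose members share a DNA-binding domain that recognises a GGAA core. Gene fusions place ERG under an androgen-responsive promoter in many prostate cancers, VCaP among them, whereas normal prostate epithelium expresses little of it. EWS, the product of EWSR1, is an RNA-binding protein best known from the fusions of Ewing's sarcoma, and the study treats it as a co-activator of ERG.

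The groups were as follows. RWPE1, an immortalised line from normal prostate, stably expressed ERG P436A, a point mutant in which a proline is replaced by alanine, and had 1 ERG list and 1 EWS list. RWPE1 that stably expressed wild-type ERG had 2 ERG lists, called replicates 1 and 2, and 1 EWS list. All RWPE1 cells were grown in keratinocyte medium under puromycin or hygromycin selection. VCaP, a prostate cancer line to which the labels assign no introduced gene, had 1 ERG list and 1 EWS list. ERG was precipitated with clone 9FY and EWS with clone G5 throughout. The labels do not say whether the RWPE1 lines were clones or pools, which promoter drove ERG, or whether the replicates were separate cultures.

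Each list gave only the position of its peaks, so read depth and peak height are unknown. The comparisons below are between groups of regions of these lists, and regions are not replicates of a condition. In each list of the P436A cells and in the VCaP EWS list no peak was wider than 501 bp. The ERG peaks of replicates 1 and 2 reached 5574 and 5985 bp and EWS peaks of wild-type ERG cells 7061 bp. The widest VCaP ERG peak spanned 184765 bp, and the rule left out every region that a VCaP ERG peak touched. Whether all lists were called with the same settings is not given in the sources used here, so differences between lists cannot be told apart from differences in peak calling. The 2 wild-type lists also stood apart from each other, as only 115 of the 3738 merged regions (3.08%) held a peak of both. Intervals after a share are exact 95% binomial intervals and cover counting error only. Cells were not checked against marker genes, since peak lists hold no expression. No genome or annotation of build hg19 was used here, so regions are given by their hg19 position, without genes or bases. Repeats, and whether reads map to a single place at these positions, were not checked.

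Both wild-type replicates held a peak at a larger share of kept regions than of the regions that P436A did not keep. These lists and the P436A list made up the rule, so the shares are a description, without a test. The comparison group was the 3248 merged wild-type regions with neither a P436A nor a VCaP ERG peak, called not kept below. Peaks of both replicates were present at 39 of 259 kept regions (15.1%, 10.9% to 20%) and at 55 of 3248 not kept regions (1.69%, 1.28% to 2.20%). The odds ratio was 10.3. With every peak set to 500 bp it was 11.1, and outside crowded megabases, those with at least 10 merged regions, it was 6.07. Seen from the other side, P436A kept 41.5% of the 94 RWPE1-only regions found in both replicates. It kept 8.94% of the 1644 found in replicate 1 only and 4.13% of the 1769 found in replicate 2 only.

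**Figure D1:**
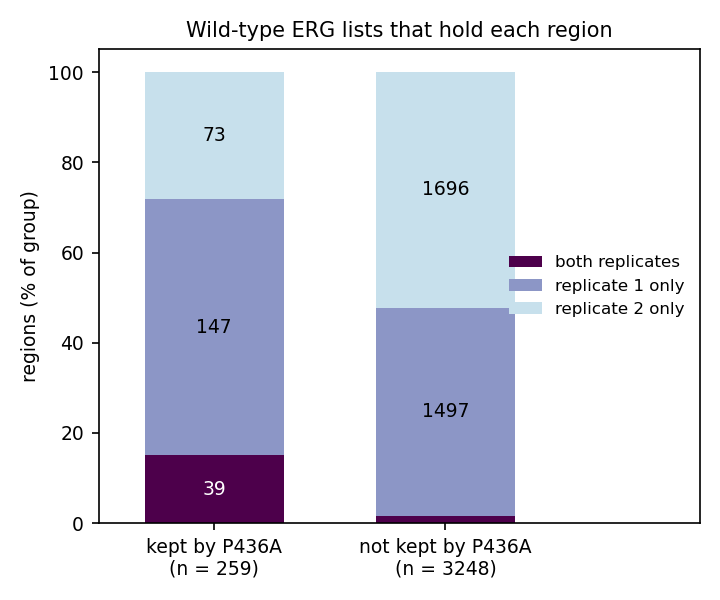
Share of kept and not kept regions (y axis, %) by the wild-type ERG lists that hold a peak there, with the number of regions in each part. Both replicates hold 39 of the 259 kept regions, a far larger part than in the 3248 not kept regions, where the thin bottom part stands for 55.

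Replicate 1 alone supplied 147 kept regions (56.8%, 50.5% to 62.9%) and replicate 2 alone 73 (28.2%, 22.8% to 34.1%). Among not kept regions the order was the opposite, with 46.1% from replicate 1 only and 52.2% from replicate 2 only. In terms of the lists themselves, the kept regions took up 259 of the 1746 ERG P436A peaks (14.8%). They took up 186 of 1901 replicate 1 peaks (9.78%) and 112 of 1953 replicate 2 peaks (5.73%).

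Within these regions the centres of the mutant and wild-type peaks were typically about 100 bp apart. At replicate 1 peaks the centre of the overlapping P436A peak lay at a median distance of 110 bp, and 84 of 186 were within 100 bp. At replicate 2 peaks the median was 90.5 bp, with 59 of 111 within 100 bp, since 1 of the 112 peaks did not itself touch the P436A peak of its region. The 39 pairs of replicate 1 and replicate 2 peaks had a median distance of 81.5 bp, with 21 of 39 within 100 bp. No test was made on these distances, since the overlap that chose the members also limits them.

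**Figure D2:**
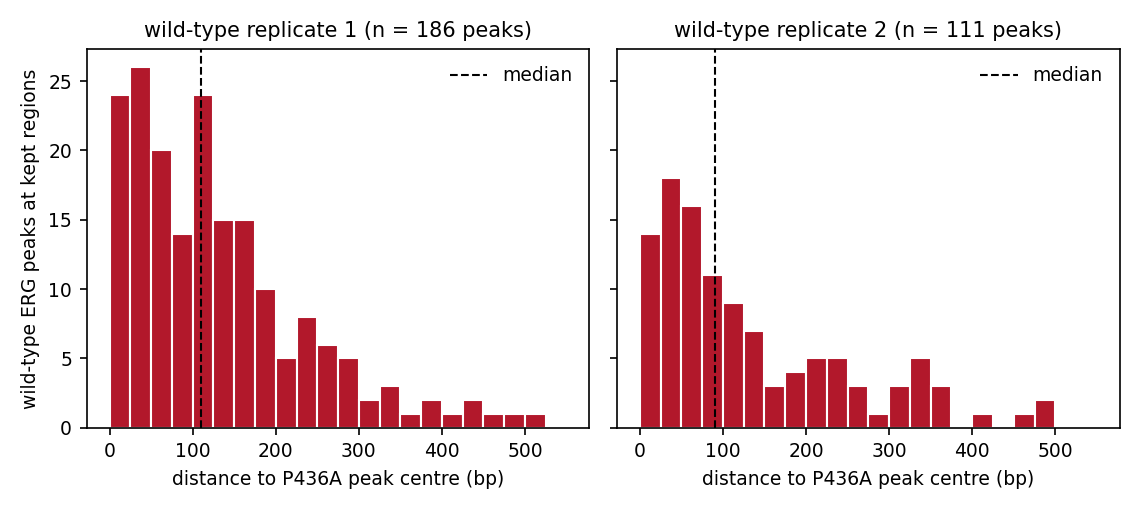
Distance between the centres of wild-type ERG peaks and the overlapping ERG P436A peak at kept regions (x axis, bp; y axis, number of wild-type peaks in steps of 25 bp), for each replicate. Dashed lines mark the medians, 110 bp in replicate 1 and 90.5 bp in replicate 2, and few peaks lie beyond 300 bp.

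The rule asked for an overlap of 1 bp, but no kept region rested on so little. The smallest overlaps with a P436A peak were 60, 117 and 119 bp, the median was 479 bp, and 154 kept regions held their P436A peak whole. Just outside, the nearest P436A peaks to not kept regions were 20, 50 and 64 bp away, and 18 not kept regions had one within 500 bp. On the VCaP side, the nearest VCaP ERG peaks to kept regions were 246, 289 and 353 bp away, 38 kept regions had one within 10 kb, and the median gap was 103953 bp. Kept regions were wider, with a median of 770 bp and quartiles of 563 and 970 bp, against 521 bp (494 and 655 bp) for not kept regions. Width thus moves with the overlaps below. The comparisons of kept and not kept regions for both RWPE1 EWS lists are also given with every peak set to 500 bp around its centre. They are given in regions of 500 bp or more too, a setting chosen after seeing the data.

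Peaks of kept regions stood early in the list of replicate 1. Their median position was 23.1% of the way down that list, and 58 of 186 (31.2%) were in its first 10%. In replicate 2 the median position was 45.6%, with 20 of 112 (17.9%) in the first 10%. In the P436A list it was 38.8%, with 44 of 259 (17.0%) in the first 10%. The order of the lists is not documented as a ranking, so these are positions and not strengths.

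**Figure D3:**
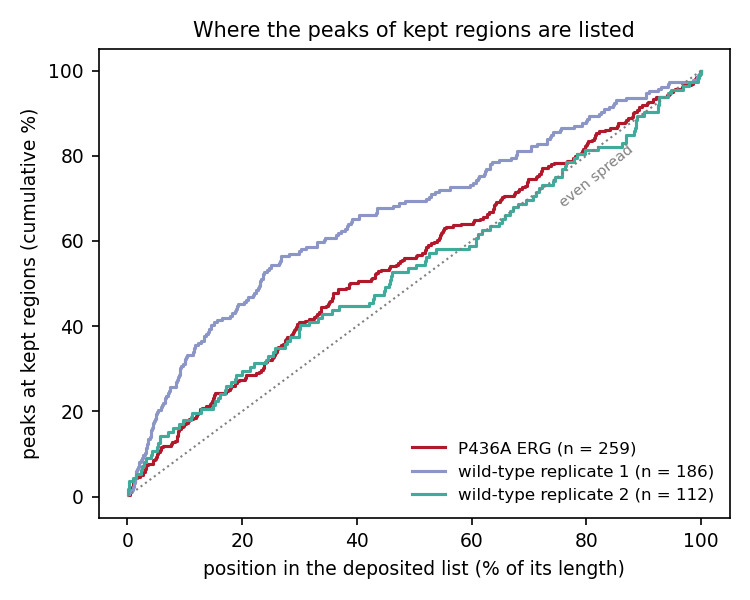
Cumulative share of the peaks at kept regions (y axis, %) against their position in the deposited list they come from (x axis, % of list length). The curve of replicate 1 rises well above the dotted line of even spread, with a median at 23.1%. Those of P436A and replicate 2 lie closer to it, with medians at 38.8% and 45.6%.

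The regions that opened the lists illustrate this. The first kept region of replicate 1, on chromosome 1 from 199241361 to 199242652, was peak 6 of replicate 1, peak 84 of replicate 2 and peak 4 of P436A. It had no EWS peak of any list. Next in replicate 1 came chromosome 20, 61371040 to 61372314 (peak 7; peak 479 of P436A), without EWS and absent from replicate 2. The region of chromosome 1 from 204140547 to 204141592 was peak 11 both of replicate 1 and of P436A, and it had an EWS peak of wild-type ERG cells. Chromosome 17, 62702753 to 62703951, was peak 20 of replicate 1, 417 of replicate 2 and 340 of P436A, and had no EWS. Chromosome 20, 60934095 to 60935363, was peak 21 of replicate 1 and 415 of P436A, with EWS of wild-type ERG cells.

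Among the 39 regions found by both replicates, the ones listed earliest with P436A were that first region of chromosome 1 and 4 others. Chromosome 1, 203857812 to 203859163, was peak 30 of P436A, 22 of replicate 1 and 1163 of replicate 2. Of these 5 it was the one with an EWS peak, which was number 52 in the list of wild-type ERG cells. Chromosome 1, 16471460 to 16472593, was peak 58 of P436A, 52 of replicate 1 and 112 of replicate 2. Chromosome 8, 126422363 to 126423498, was peak 98 of P436A, 112 of replicate 1 and 698 of replicate 2. Chromosome 12, 120668911 to 120669831, was listed at nearly the same place in all 3 lists, at 153 in P436A, 178 in replicate 1 and 177 in replicate 2.

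Most kept regions carried no EWS peak with either ERG form. Neither RWPE1 list of EWS had a peak at 224 of 259 kept regions (86.5%, 81.7% to 90.4%), and both had one at 4 (1.54%). At not kept regions neither had a peak at 3019 of 3248 (92.9%, 92.0% to 93.8%), and both had one at 11 (0.339%). Kept regions thus lacked EWS less often than not kept ones. Among kept regions, EWS of P436A cells was present at 13 (5.02%, 2.70% to 8.43%) and EWS of wild-type ERG cells at 26 (10.0%, 6.66% to 14.4%). Over all merged wild-type regions these shares were 1.69% and 6.02%. The list of P436A cells was the shorter, with 1786 EWS peaks against 5703. EWS was found with P436A alone at 9 kept regions and with wild-type ERG alone at 22, a ratio of 2.44 (1.08 to 6.03; exact McNemar p = 0.0294, adjusted p = 0.0569) that missed the threshold of 0.05. Without replicate 2 the ratio passed it, at 8.0 (16 against 2; exact McNemar adjusted p = 0.00919). This test takes no account of the lengths of the 2 EWS lists, so passing it does not set kept regions apart. The ratio was 1.57 without replicate 1 (11 against 7) and 1.5 outside crowded megabases (9 against 6), and neither passed (exact McNemar adjusted p = 0.561 and 0.820). At not kept regions the corresponding counts were 36 and 182. The share of wild-type ERG alone was 71.0% at kept and 83.5% at not kept regions, and the odds ratio was 0.484 (0.195 to 1.30; Fisher's exact p = 0.130), so no difference in this balance was detected.

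EWS of P436A cells was more frequent at kept than at not kept regions, with 13 of 259 (5.02%) against 47 of 3248 (1.45%, 1.07% to 1.92%). The odds ratio was 3.60 (1.76 to 6.87; Fisher's exact p = 3.19e-04, adjusted p = 0.00287). It was 2.03 with regions that had a VCaP EWS peak left out (7 of 247 against 45 of 3175; Fisher's exact adjusted p = 0.218), and 2.12 without replicate 2 (5 of 186 against 20 of 1552; Fisher's exact adjusted p = 0.375). Without replicate 1 it was 4.27 (8 of 112 against 31 of 1752; Fisher's exact adjusted p = 0.00396). With every peak at 500 bp it was 3.17 (12 of 261 against 49 of 3277, Fisher's exact adjusted p = 0.0120). In regions of 500 bp or more it was 4.14 (13 of 225 against 30 of 2056, Fisher's exact adjusted p = 0.00132).

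EWS of wild-type ERG cells was present at 26 of 259 kept (10.0%) and 193 of 3248 not kept regions (5.94%, 5.15% to 6.81%). The odds ratio was 1.77 (1.10 to 2.74; Fisher's exact p = 0.0153, adjusted p = 0.0503), just short of the threshold. The 2 replicates gave different values. Among regions of replicate 1 only, EWS was at 14 of 147 kept (9.52%) and 144 of 1497 not kept regions (9.62%), an odds ratio of 0.989 (0.513 to 1.78). Among regions of replicate 2 only, it was at 7 of 73 kept (9.59%) and 41 of 1696 not kept regions (2.42%), an odds ratio of 4.28 (1.56 to 10.1). These odds ratios differed (exact test of equal odds p = 0.00780, adjusted p = 0.0234 over the 3 EWS lists). With every peak at 500 bp the odds ratio over all regions was 1.68 (Fisher's exact adjusted p = 0.0799), and outside crowded megabases it was 1.51 (Fisher's exact adjusted p = 0.743). In regions of 500 bp or more it was 1.40 (22 of 225 against 148 of 2056, Fisher's exact adjusted p = 0.270). Without replicate 2 it was 1.05 (19 of 186 against 152 of 1552; Fisher's exact adjusted p = 1.00), and without replicate 1 it was 4.17 (12 of 112 against 49 of 1752; Fisher's exact adjusted p = 0.00123).

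For EWS of P436A cells the same strata gave odds ratios of 3.26 (5 of 147 against 16 of 1497) in regions of replicate 1 only and 7.61 (8 of 73 against 27 of 1696) in those of replicate 2 only. Equal odds were not refused (exact p = 0.321, adjusted p = 0.321). Regions found by both replicates gave no detectable difference between kept and not kept. EWS of P436A cells was at 0 of 39 kept regions (upper limit 9.03%), against 4 of 55 not kept regions (Fisher's exact adjusted p = 0.243). EWS of wild-type ERG cells was at 5 of 39 against 8 of 55, giving an odds ratio of 0.864 (95% interval 0.204 to 3.31; Fisher's exact adjusted p = 1.00).

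**Figure D4:**
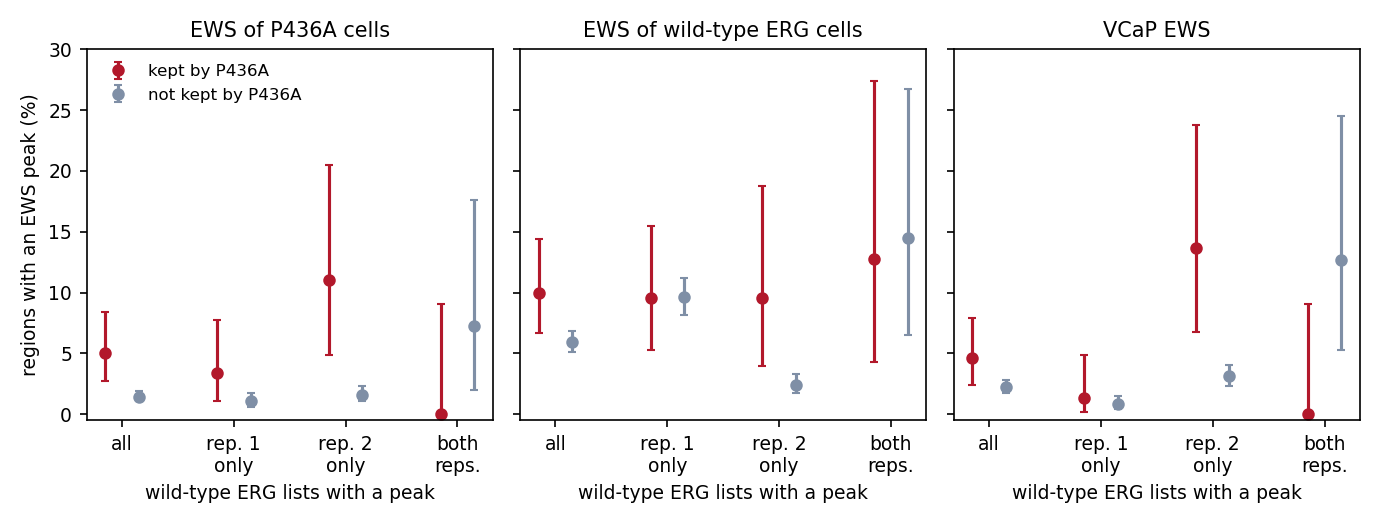
Share of kept and not kept regions with an EWS peak (y axis, %; bars are exact 95% binomial intervals) for each EWS list, over all regions and by the wild-type ERG lists with a peak. For EWS of wild-type ERG cells, kept and not kept regions lie together at 9.52% and 9.62% in replicate 1 only and apart at 9.59% and 2.42% in replicate 2 only.

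The EWS list of VCaP was set against the same regions, where by rule no VCaP ERG peak lay. It had a peak at 12 of 259 kept (4.63%, 2.42% to 7.95%) and 73 of 3248 not kept regions (2.25%, 1.77% to 2.82%), with 2.38% over all merged regions. The odds ratio was 2.11 (1.03 to 3.99; Fisher's exact p = 0.0316, adjusted p = 0.0569), which missed the threshold. It was 0.833 without replicate 2 (2 of 186 against 20 of 1552; Fisher's exact adjusted p = 1.00) and 2.76 without replicate 1 (10 of 112 against 60 of 1752; Fisher's exact adjusted p = 0.0133). In regions of both replicates VCaP EWS was at 0 of 39 kept and 7 of 55 not kept regions (Fisher's exact p = 0.0389, adjusted p = 0.189). Of the 12, 10 belonged to replicate 2 only, 2 to replicate 1 only and 0 to both. EWS of P436A cells was present at 6 of the 12, and these make up 6 of its 13 kept regions. At not kept regions 2 of 47 had both. EWS of wild-type ERG cells coincided with VCaP EWS at 2 of its 26 kept regions.

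The P436A peaks in kept regions carried EWS more often than the P436A peaks found in no other ERG list. This comparison was chosen after the data were seen. Peaks of the P436A list were 335 to 501 bp wide, with a median of 491 bp, and the widths of the 2 groups were not compared. In P436A cells EWS was at 13 of 259 P436A peaks in kept regions (5.02%) and at 24 of 1370 P436A-only peaks (1.75%), giving an odds ratio of 2.96 (95% interval 1.36 to 6.15; Fisher's exact p = 0.00453, adjusted p = 0.00679). EWS of wild-type ERG cells was at 24 of 259 (9.27%) and 59 of 1370 (4.31%), giving an odds ratio of 2.27 (95% interval 1.32 to 3.79; Fisher's exact p = 0.00185, adjusted p = 0.00556). The 13 with EWS of P436A cells are the same 13 kept regions as above, 6 of them with VCaP EWS. The comparison was not repeated without those, without a replicate or without the megabase of chromosome 22 described below.

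Against the 43 regions kept by P436A that VCaP ERG also occupied, no difference in EWS was detectable. That of P436A cells was at 5.02% of kept and 3 of 43 of those regions (6.98%), giving an odds ratio of 0.705 (95% interval 0.182 to 4.03; Fisher's exact adjusted p = 0.710). EWS of wild-type ERG cells was at 10.0% and 2 of 43 (4.65%), giving an odds ratio of 2.29 (95% interval 0.536 to 20.6; Fisher's exact adjusted p = 0.508). The intervals are wide enough to hold large differences in either direction. Among kept regions, those in both replicates and those in 1 could not be told apart in EWS of P436A cells (0 of 39 against 13 of 220; Fisher's exact adjusted p = 0.341) or of wild-type ERG cells (5 of 39 against 21 of 220; Fisher's exact adjusted p = 0.633).

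The 4 kept regions with EWS of both RWPE1 lists were each found by 1 wild-type replicate. Repeated sequence at their positions was not checked. On chromosome 20, 62542306 to 62542879, the peaks of 4 lists nearly coincided. The P436A peak ran from 62542306 to 62542792, EWS of P436A cells from 62542344 to 62542837, the replicate 1 peak over the whole region and EWS of wild-type ERG cells from 62542346 to 62542846. It was peak 49 of P436A and 46 of the EWS list of P436A cells. On chromosome 20, 29588420 to 29588954, EWS of P436A cells spanned 490 bp and EWS of wild-type ERG cells 1630 bp. Chromosome 1, 144014441 to 144015140, was peak 1725 of P436A and 1478 of replicate 2, near the end of the P436A list. There EWS of wild-type ERG cells ended at 144014456, before the P436A peak began at 144014480. Across kept regions, 24 of the 26 with EWS of wild-type ERG cells had it overlapping the P436A peak. Chromosome 21, 9825344 to 9826154, had peaks in every list except replicate 2 and VCaP ERG. There the P436A ERG peak and the VCaP EWS peak had the same start and end, 9825380 and 9825880.

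The 5 kept regions with both replicates and EWS all had it in the list of wild-type ERG cells. Besides chromosome 1, 203857812 to 203859163, these were chromosome 9, 91392489 to 91393458, chromosome 8, 128403315 to 128404227, chromosome 20, 62165177 to 62165768, and chromosome 1, 91852643 to 91853286. On chromosome 9 the region was peak 97 of replicate 1 and 105 of replicate 2. The last of these regions differed from the others in its place in the lists. It held the final peak of replicate 1 (1901 of 1901), of replicate 2 (1953 of 1953) and of EWS in wild-type ERG cells (5703 of 5703). The peaks of both replicates there began at the same base, 91852643, and the P436A peak overlapped the region by 119 bp, among the smallest overlaps. Repeated sequence was not checked at this position either.

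Chromosome 22 from 29 to 30 Mb held 3 kept regions with an unusual pattern. They ran from 29673600 to 29674717, 29677825 to 29679078 and 29682369 to 29683684, and were peaks 7, 5 and 1 of replicate 2 and 91, 88 and 156 of P436A. Replicate 1 and EWS of wild-type ERG cells had no peak in that megabase. EWS of P436A cells had 4 peaks in it, of which the 3 at kept regions were numbers 4, 3 and 2 of its list, and VCaP EWS had 6. At 2 of these regions the EWS peaks of P436A cells and of VCaP had the same start and end, 29673879 to 29674337 and 29682824 to 29683263. Those 2 were the only identical peaks of the 49 EWS peaks of P436A cells that overlapped a VCaP EWS peak. Over all 21 pairs of lists 5 identical peaks were found, 3 of them at kept regions. Those 3 were all between lists with no peak wider than 501 bp. Without this megabase the odds ratio for EWS of P436A cells at kept over not kept regions was 2.83 (10 of 256 against 46 of 3244; Fisher's exact adjusted p = 0.0240), and that for VCaP EWS was 1.58 (9 of 256 against 73 of 3244; Fisher's exact adjusted p = 0.352). The other region among the first 5 of replicate 2, on chromosome 1 from 166245190 to 166247093, was alike in this. It was peak 3 of replicate 2, 17 of P436A, 5 of EWS in P436A cells and 553 of VCaP EWS, with no peak of replicate 1 or of EWS in wild-type ERG cells. The fifth, chromosome 20, 30300394 to 30301833, was in both replicates and had no EWS.

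Kept regions lay on every autosome, and chromosome 20 held the largest number. There were 54 of 259 kept regions there (20.8%), against 352 of 3248 not kept regions (10.8%), and these 54 included 12 of the 39 found by both replicates. Chromosomes 1 and 9 held 35 each and chromosome 5 held 28. Chromosomes 1, 5, 9 and 20 together held 152 kept (58.7%, 52.4% to 64.7%) and 1652 not kept regions (50.9%, 49.1% to 52.6%), with 50.9% over all merged regions. The odds ratio was 1.37 (1.05 to 1.79). These chromosomes were chosen with these data in view, and the P436A list made up the rule, so the shares are a description. The odds ratio was 0.964 (0.687 to 1.34) outside megabases with at least 10 merged regions, 1.22 without replicate 2 and 2.00 without replicate 1. The P436A list had 284 peaks on chromosome 20, more than on any other chromosome. Of the 43 regions kept by P436A with a VCaP ERG peak, 27 (62.8%) lay on chromosomes 1, 5, 9 and 20.

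**Figure D5:**
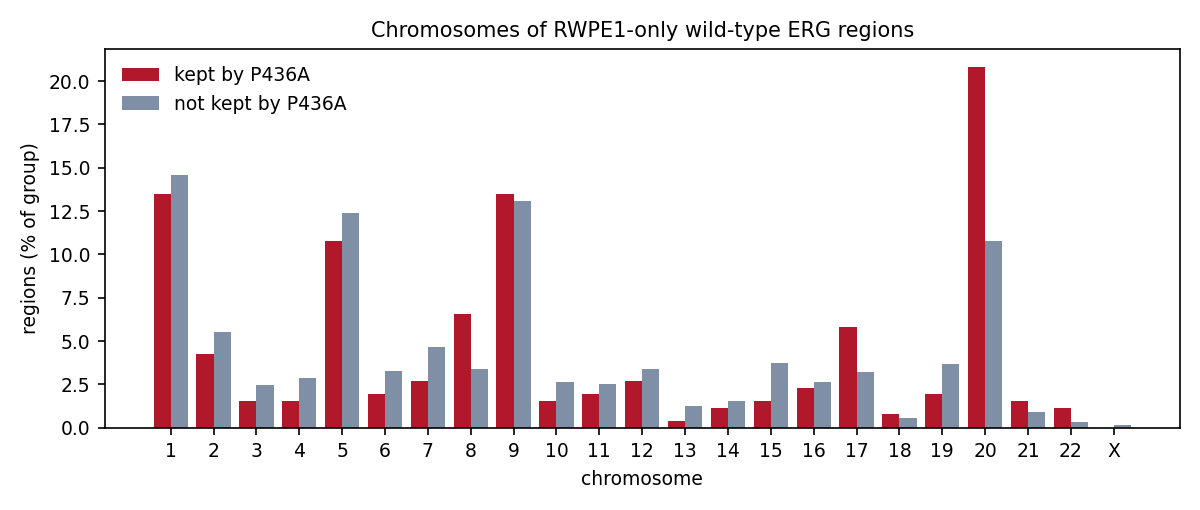
Share of kept and of not kept regions (y axis, %) on chromosomes 1 to 22 and X. Chromosome 20 holds 20.8% of kept and 10.8% of not kept regions. Chromosomes 8, 9, 17, 18, 21 and 22 also show a taller bar for kept regions. Those of 18, 21 and 22 stand for 2, 4 and 3 kept regions.

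Within chromosomes the kept regions occupied 191 megabases, 153 of which held a single one, 9 kept regions had another within 10 kb and 51 had one within 100 kb. The fullest megabase was chromosome 20, 62 to 63 Mb, with 7 of its 23 merged regions kept, followed by chromosome 9, 139 to 140 Mb, with 6 of 21. Chromosome 20, 30 to 31 Mb, had 5 of 16 and chromosome 9, 140 to 141 Mb, 5 of 13. Next, with 4 each, were chromosome 20, 46 to 47 Mb, and chromosome 8, 145 to 146 Mb. Each of the megabases 198 to 199 and 199 to 200 of chromosome 1 gave 3 kept regions, with 33 and 32 replicate 1 peaks and 1 replicate 2 peak in each. Of all kept regions 35.1% lay in megabases with at least 10 merged regions, against 23.8% of not kept regions. The share was 34.9% of the 43 regions kept by P436A with a VCaP ERG peak.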

How the data were processed

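ChIP-seq peaks of ERG and EWS were available for 7 of 10 samples, and the 3 input samples were not used here. Per the submitters' processing notes, alignment was by Bowtie2 (version given as 0.12.8) to hg19. The sources used here do not say how peaks were called or against which control. Each deposited list holds 3 columns per peak, chromosome, start and end, in base pairs and without a score. Starts were read as 0-based, and printed positions are 1-based.

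Groups came from the labels. Regions were sorted by overlaps of at least 1 bp. Differences in shares were tested by a two-sided Fisher's exact test, with conditional exact 95% intervals around the sample odds ratio, and EWS of the 2 RWPE1 lists with an exact McNemar test, also two-sided. Equal odds were tested exactly, conditional on all margins. P-values were adjusted (Benjamini-Hochberg) over 9 tests, over 7 where 1 replicate or regions of both replicates were used, and over 3 for those added later. The planned test of the share with both replicates was dropped, since the rule uses those lists. With it among 10 tests, EWS of wild-type ERG cells would have had an adjusted p of 0.0419 in place of 0.0503. The counts of 9 and 7 tests include the share on chromosomes 1, 5, 9 and 20, which is given as a description. An adjusted p under 0.05 was the threshold. The members, lists and comparisons were chosen with earlier results of these data known. Regions share megabases, so p-values treat neighbours as independent. A planned test on gene start sites was not run.

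Named regions were kept regions with EWS of both RWPE1 lists, those of both replicates with EWS, the 5 first listed of each wild-type list, the 5 of both replicates first listed with P436A and the 5 fullest megabases (6 with ties); the chromosome 22 megabase was chosen after its values were seen. The code was tested on simulated lists. Python 3.11.15, NumPy 2.4.6, SciPy 1.17.1 and Matplotlib 3.10.9 were used.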

Additional observations from a re-analysis of the deposited data

How the results depend on the processing

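The larger share of both replicates at kept regions, a description without a test, had odds ratios from 6.07 (outside crowded megabases) to 11.1. The number of kept regions was 168 outside crowded megabases and 112 to 186 when 1 replicate was left out. EWS of P436A cells at kept over not kept regions lost its call without regions that had VCaP EWS (2.03) and in regions of both replicates (0), and was 2.12 to 4.27 with 1 replicate left out, uncalled without replicate 2. EWS of wild-type ERG cells passed the threshold when an overlap had to cover a share of 0.5 of the shorter interval (1.80), on chromosomes 1 to 22 and X (1.80) and without the chromosome 22 megabase (1.79). It was 0.864 in regions of both replicates and 1.05 to 4.17 with 1 replicate left out, called without replicate 1. VCaP EWS was called at the share of 0.5 (2.48), was 0 in regions of both replicates and 0.833 to 2.76 with 1 replicate left out, called without replicate 1. The shares on chromosomes 1, 5, 9 and 20 are also a description. Their odds ratios were 0.964 outside crowded megabases and 1.22 to 2.00 with 1 replicate left out. EWS with wild-type ERG alone over P436A alone was 1.5 outside crowded megabases and 1.57 to 8.0 with 1 replicate left out, called without replicate 2. Regions of both replicates gave no ratio (5 against 0). The test of this ratio takes no account of list length. For EWS of wild-type ERG cells the odds ratio without over with VCaP ERG was 0.911 outside crowded megabases. Fewer regions are tested where replicates or megabases are left out, and the cause of the other shifts was not tested. Alternatives on the chromosome 22 megabase, VCaP EWS, regions of 500 bp or more and P436A-only peaks were chosen after seeing the data. No paired analysis was possible because, among the groups compared, only wild-type ERG in RWPE1 has more than 1 list, so no pair of replicate numbers is shared. Depth is unknown, and counts of 0 to 14 regions with EWS in the strata limit their precision.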
